A study of Mus musculus with 22 samples.

Results

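Flow-through RNA of injured spinal cord from mice labelled as lacking STAT3 in astrocytes was compared with flow-through RNA of uninjured spinal cord. Flow-through is the RNA that stayed unbound when the tagged ribosomes of astrocytes were pulled down from the homogenised tissue, so it holds RNA of the other cells of the cord and whatever astrocyte RNA the pull-down left behind. Members were taken by the labels for genotype, condition and RNA sample type, which gave 7 of the 22 libraries of the series, each from a separate animal. The STAT3-CKO SCI group (n = 3, animals 186, 270 and 531) consisted of young adult female mGFAP-Cre-RiboTag-STAT3-LoxP mice given a severe crush of the cord at thoracic level 10 and sampled 14 days later from the central 3 mm of the lesion. The WT uninjured group (n = 4, animals 42, 65, 79 and 154) consisted of mGFAP-Cre-RiboTag mice matched for sex and age. A further group enters below only where a result needs it: WT SCI (n = 4, animals 9596, 9843, 9874 and 9935), mGFAP-Cre-RiboTag mice with the same injury, time and tissue. In all of these mice Cre was driven by a mouse Gfap promoter and switched on the hemagglutinin (HA) tag of RiboTag, and in STAT3-CKO SCI mice the same Cre acted on the LoxP-flanked Stat3 allele. Injury and genotype change together between STAT3-CKO SCI and WT uninjured and cannot be told apart in that comparison. Uninjured cord of STAT3-CKO mice was not analysed here.

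A crush of the spinal cord kills neurons and oligodendrocytes at its centre, severs myelinated axons and draws in blood-borne macrophages that, with resident microglia, clear myelin debris. Phagocytes loaded with myelin lipid switch on lysosomal, lipid export and antigen presentation genes, and fibroblast-like cells lay down collagen in the lesion core. Astrocytes around the core become reactive and form a border, and STAT3, a transcription factor switched on by cytokines that signal through the gp130 receptor, is needed in astrocytes for that border to form.

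The flow-through libraries held 4396861 to 8399656 counts in STAT3-CKO SCI and 4904425 to 11242654 counts in WT uninjured animals. Of these, 49.95 to 88.4% in STAT3-CKO SCI and 9.49 to 39.7% in WT uninjured libraries fell on Rn45s, the precursor of ribosomal RNA. The share was higher in every STAT3-CKO SCI library than in any WT uninjured one, so it and the injury cannot be told apart here. Outside Rn45s and 2 other rows with ribosomal sequence, Lars2 and Mir6236, 460759, 4022328 and 662593 counts remained in STAT3-CKO SCI libraries and 10140612, 2858044, 3705313 and 7898355 in WT uninjured libraries. Animal 270 was by far the deepest of the STAT3-CKO SCI libraries. Levels below are in CPM, counts per unit of library size after scaling by the trimmed mean of M-values (TMM), with each library set to the same size. Values per library stand in the order of the animal numbers above. On this scale 3 counts equal 1.26, 0.134 and 0.877 CPM in the STAT3-CKO SCI libraries and 0.0477 to 0.168 CPM in the WT uninjured libraries, which sets how finely low genes could be read. Rn45s counts stay in the library size, so 1 CPM here corresponded to 5.16 to 6.31 CPM of the counts outside the ribosomal rows in the 7 libraries. In bulk RNA of a tissue, fewer cells of a type and less RNA per cell cannot be told apart.

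Stat3 itself (GRCm38, chr11:100885098-100939540) was not below its WT uninjured level in the STAT3-CKO SCI flow-through. It had 14.2, 27.3 and 24.8 CPM in STAT3-CKO SCI libraries, against 59.6, 29.5, 28.6 and 17.7 CPM in WT SCI libraries and 11.6, 14.2, 11.4 and 13.6 CPM in WT uninjured libraries. Every STAT3-CKO SCI library lay above every WT uninjured one, animal 186 by under 0.1 CPM, and the STAT3-CKO SCI and WT SCI libraries overlapped. The difference from WT uninjured did not pass (log2 fold change 0.82 ± 0.35 SE, adjusted p = 0.125), nor did that from WT SCI (log2 fold change -0.66 ± 0.37 SE, adjusted p = 0.441). With only the 7 compared libraries in the fit it passed narrowly (log2 fold change 0.79, adjusted p = 0.0445). Reads over the whole gene were summed, the sources used here do not say which exons LoxP flanks, and flow-through also holds RNA of cells without Cre. These values therefore do not check the deletion. The fraction labels were checked with 2 astrocyte genes on the scale of a fit over both fractions, flow-through and HA IP, the RNA pulled down with the tagged ribosomes. Gfap averaged 132 CPM in flow-through and 1408 CPM in HA IP of STAT3-CKO SCI animals, and 57.1 and 2118 CPM in those of WT uninjured animals. Aqp4 averaged 246 and 1238 CPM in STAT3-CKO SCI and 56.1 and 1189 CPM in WT uninjured animals, lower in flow-through in both groups.

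Among 12685 genes tested with edgeR's quasi-likelihood test and Benjamini-Hochberg adjustment, 1769 (13.9%) differed between STAT3-CKO SCI and WT uninjured flow-through at an adjusted p under 0.05. Of these, 1321 were higher in STAT3-CKO SCI, 10.4% of the genes tested, and 448 were lower, 3.53%. The median log2 fold change of all genes tested was -0.0002. All 3 STAT3-CKO SCI libraries lay above all 4 WT uninjured libraries in 17.2% of the genes tested and below them in 16.7%. The count of lower genes depended on the fit: it was 1159 with only the 7 compared libraries in it, against 1592 higher, 677 with the relative log expression (RLE) size factors, against 1135 higher, and 1122 with DESeq2, against 1358 higher. Without any 1 library the lower genes numbered 181 (animal 531 left out) to 442 (animal 42), with 206, 220, 249 and 272 when animals 186, 154, 79 and 65 were left out, while the higher genes numbered 1024 to 1177. In the authors' deposited table for this comparison, 2910 genes stood under a false discovery rate of 0.05, 1984 of them higher and 926 lower in the injured STAT3-CKO tissue. The authors' deposited table held 1763 of the 1769 genes called here among them, with the same sign. Gene lists of cell types and pathways are described below by how many members passed in each direction and by their median log2 fold change, to be read beside these shares over all genes. Summed levels of a list are over its tested members. A gene could pass the filter on low counts through the injured libraries alone, and its rise was then largely fixed in advance.

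**Figure D1:**
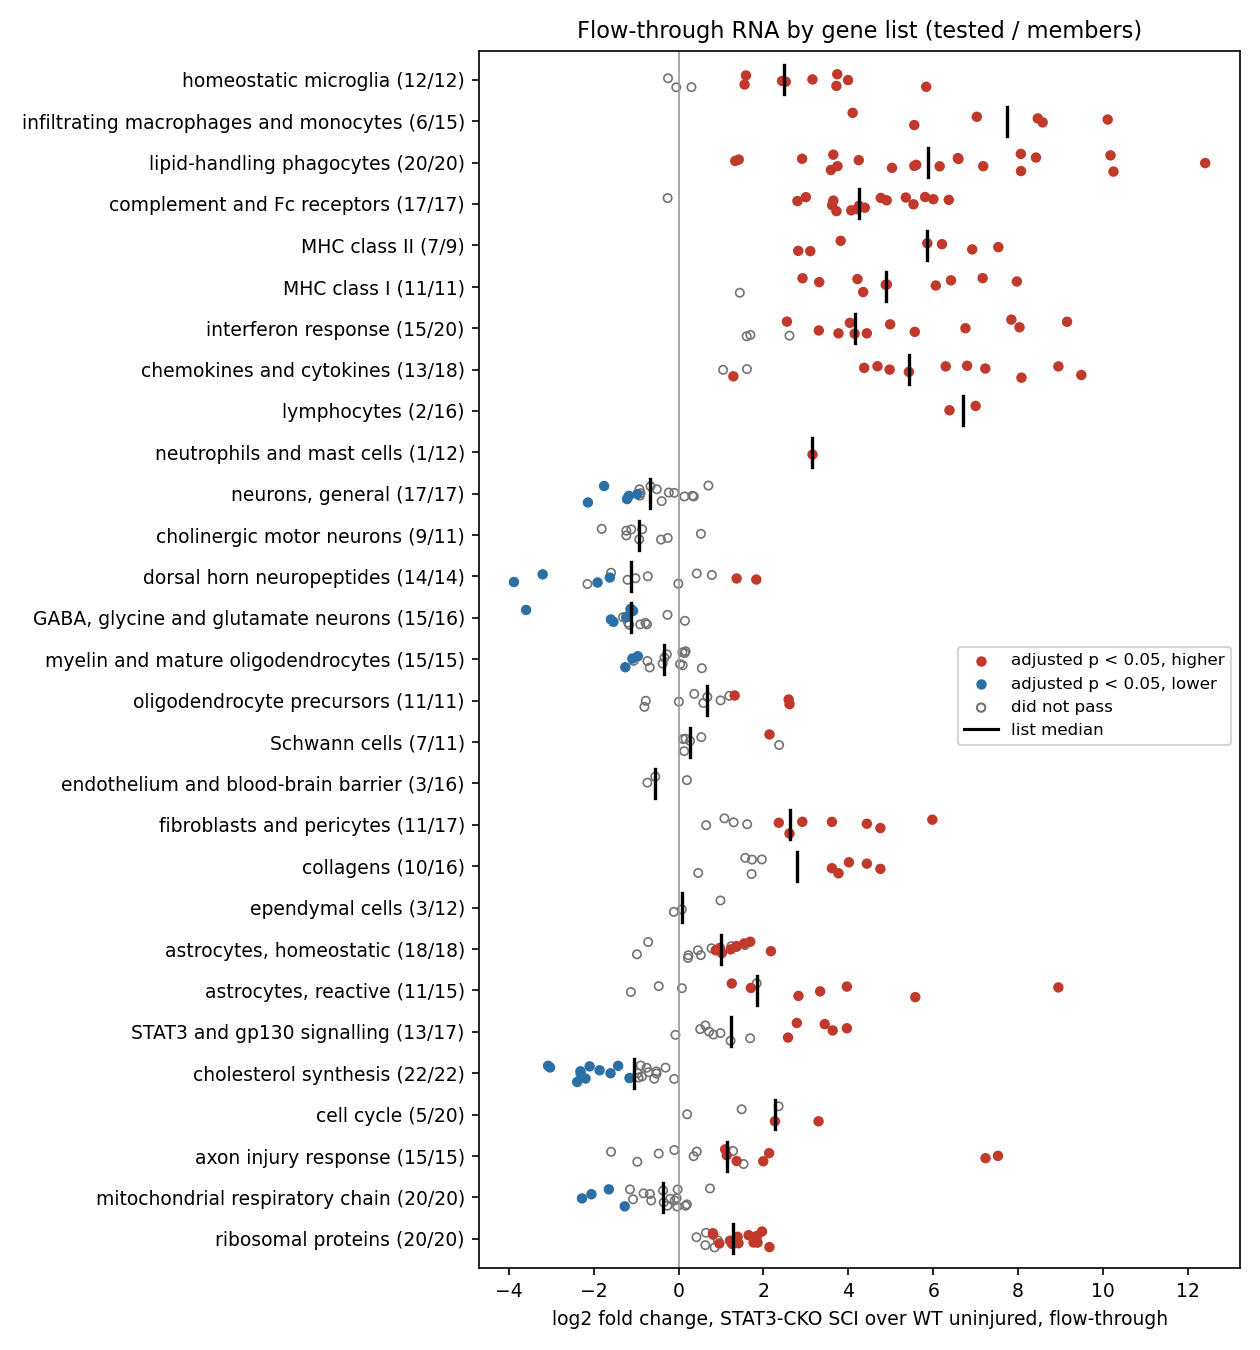
Log2 fold changes of flow-through RNA, STAT3-CKO SCI (n = 3) over WT uninjured (n = 4), for the tested members of 29 gene lists; each point is a gene, filled where it passed the test (red higher, blue lower), open where it did not, and the black bar is the list's median. The phagocyte, complement and antigen presentation lists lie well to the right of 0, with medians of 5.88 for lipid-handling phagocytes and 5.86 for MHC class II, while the neuron lists and cholesterol synthesis lie to the left of 0; the list of red blood cells had no tested member and is not drawn.

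Genes of macrophages and microglia that take up and break down lipid were higher in the lesion without exception among those listed. All 20 members of the list of lipid-handling phagocytes were tested and all 20 rose, with a median log2 fold change of 5.88. Cst7 and Lgals3, almost without uninjured counts, passed the filter on low counts through injured libraries alone, so their rise was fixed in advance. Summed over the members, the level was 8549 to 9003 CPM in STAT3-CKO SCI and 317 to 508 CPM in WT uninjured libraries. Gpnmb (chr6:49036546-49070929), a transmembrane glycoprotein of lipid-laden phagocytes, had 439, 693 and 571 CPM in STAT3-CKO SCI libraries, against 0.239, 0.504, 0.390 and 0.722 CPM in WT uninjured libraries (log2 fold change 10.25 ± 0.57 SE, adjusted p = 7.97e-13). Lgals3, the carbohydrate-binding protein galectin-3 of activated macrophages, had 37.7, 53.1 and 47.9 CPM in STAT3-CKO SCI and 0, 0, 0.0433 and 0.0802 CPM in WT uninjured libraries (log2 fold change 10.18 ± 0.56 SE, adjusted p = 7.97e-13). The 2 groups were far apart for both genes, and the spread within STAT3-CKO SCI was small beside that gap. Cst7, the cathepsin inhibitor cystatin F, had 2377 counts over the 3 STAT3-CKO SCI libraries and 1 count over the 4 WT uninjured ones, a ratio of levels of 12941 with a 95% counting interval of 2320.4 to 511356. Clec7a, the beta-glucan receptor dectin-1, had 38.1, 41.5 and 28.9 CPM in STAT3-CKO SCI and 0.0159, 0.168, 0.347 and 0.0200 CPM in WT uninjured libraries (log2 fold change 8.42 ± 0.59 SE, adjusted p = 3.97e-11). Itgax, the integrin CD11c, had 19.7, 24.7 and 28.1 CPM in STAT3-CKO SCI and 0, 0.224, 0.173 and 0.0602 CPM in WT uninjured libraries (log2 fold change 8.07 ± 0.62 SE, adjusted p = 1.87e-10). For both receptors the lowest STAT3-CKO SCI library was many times above the highest WT uninjured one. Both were taken by the size of their difference, under a rule that required no overlap.

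Tested genes on the list of infiltrating macrophages and monocytes were low in uninjured cord and higher in the lesion, and most of their summed level was 1 gene, Lyz2. The list does not by itself tell macrophages that enter from blood from those resident in the tissue. Of 15 members of that list, 6 passed the filter on low counts and all 6 rose, with a median of 7.75, or 8.38 over the 5 tested with ribosomal rows removed. Together the 6 reached 1969 to 3107 CPM in STAT3-CKO SCI and 5.57 to 11.3 CPM in WT uninjured libraries. The 5 other than Lyz2 summed to 53.2 to 75.1 CPM in STAT3-CKO SCI and 1.06 to 2.004 CPM in WT uninjured libraries. A gene could pass the filter through the injured libraries alone, and such a gene had to differ. The other 9 members, among them the chemokine receptor gene Ccr2 and the mannose receptor gene Mrc1, summed to 2.63 to 7.58 CPM in STAT3-CKO SCI and 0.390 to 1.10 CPM in WT uninjured libraries, and 4 of the 9 were higher in the fit with no filter: Ccr2, Ly6c2, Ms4a4c and Plac8. Lyz2 (chr10:117277331-117282321), the lysozyme of macrophages and granulocytes, had 2349, 1898 and 3032 CPM in STAT3-CKO SCI libraries, against 6.11, 5.44, 9.75 and 4.15 CPM in WT uninjured libraries (log2 fold change 8.58 ± 0.50 SE, adjusted p = 1.85e-12). Ms4a7, a membrane protein of tissue and blood-derived macrophages, had 553 counts over the 3 STAT3-CKO SCI libraries and 1 over the 4 WT uninjured ones, a ratio of levels of 3011 with a 95% counting interval of 538 to 119128. Emr1, which encodes the macrophage surface protein F4/80, had 22.2, 30.8 and 33.03 CPM in STAT3-CKO SCI and 0.0636, 0.561, 1.17 and 0.762 CPM in WT uninjured libraries (log2 fold change 5.55 ± 0.53 SE, adjusted p = 9.93e-09). The WT uninjured library of animal 42 was the lowest of its group for Emr1, and no WT uninjured library reached the STAT3-CKO SCI ones for any of the 3. The genes that follow were taken by the size of their difference and are not on the list. Cybb, the catalytic subunit of the phagocyte NADPH oxidase, had 40.2, 32.8 and 32.2 CPM in STAT3-CKO SCI and 0.0795, 0, 0.0433 and 0.0200 CPM in WT uninjured libraries (log2 fold change 9.41 ± 0.58 SE, adjusted p = 4.09e-12). Siglec1, a sialic acid receptor of macrophages, had 732 counts in the STAT3-CKO SCI and 0 in the WT uninjured libraries and was at least 1328-fold higher, set against a floor of 3 counts over the 4 uninjured libraries. Both genes were at or close to 0 in uninjured cord. Apoc4, an apolipoprotein, had 290 counts in the STAT3-CKO SCI and 0 in the WT uninjured libraries and was at least 526-fold higher by the same floor. Wfdc17, a small secreted protein of macrophages, had 623 counts in the STAT3-CKO SCI and 2 in the WT uninjured libraries, a ratio of levels of 1696 with a 95% counting interval of 468 to 14035.

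Genes of resting microglia did not move as 1 block. Of 12 members, all tested, 9 rose and 3 did not pass, with a median of 2.48. Their level added up to 737 to 809 CPM in STAT3-CKO SCI and 56.03 to 91.6 CPM in WT uninjured libraries. Cx3cr1, the fractalkine receptor of microglia and monocytes, had 46.04, 45.3 and 54.4 CPM in STAT3-CKO SCI and 1.72, 3.36, 4.68 and 4.81 CPM in WT uninjured libraries (log2 fold change 3.74 ± 0.36 SE, adjusted p = 9.26e-09). Fcrls, a scavenger receptor-like protein of mouse microglia, had 80.4, 84.6 and 121 CPM in STAT3-CKO SCI and 0.875, 1.91, 2.73 and 1.34 CPM in WT uninjured libraries (log2 fold change 5.83 ± 0.37 SE, adjusted p = 5.71e-12). The groups did not overlap in either gene. P2ry12, the purinergic receptor that marks surveying microglia, had 5.44, 9.73 and 3.22 CPM in STAT3-CKO SCI and 6.11, 7.34, 6.72 and 6.34 CPM in WT uninjured libraries, and the WT uninjured libraries lay inside the range of the STAT3-CKO SCI ones (log2 fold change -0.05 ± 0.50 SE, adjusted p = 0.963). The other 2 members that did not pass were Siglech and Sall1, named here after their values were seen, with log2 fold changes of -0.25 ± 0.71 (SE) and 0.30 ± 0.48 (SE).

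Complement and Fc receptor genes rose together with the phagocyte genes. Of 17 members, all tested, 16 rose and 1 did not pass, with a median of 4.25. Added together, the members had 1385 to 2093 CPM in STAT3-CKO SCI and 48.2 to 92.04 CPM in WT uninjured libraries. C1qa, a chain of the complement initiator C1q, had 417, 242 and 343 CPM in STAT3-CKO SCI and 2.04, 5.04, 5.89 and 3.41 CPM in WT uninjured libraries (log2 fold change 6.37 ± 0.38 SE, adjusted p = 2.7e-12). C1qc, the chain C of the same complex, had 272, 450.0 and 377 CPM in STAT3-CKO SCI and 10.3, 16.4, 15.99 and 11.4 CPM in WT uninjured libraries (log2 fold change 4.76 ± 0.33 SE, adjusted p = 3.2e-11). Both chains were higher in every STAT3-CKO SCI library, and animal 270 was the lowest STAT3-CKO SCI library for C1qa but the highest for C1qc. Fcer1g, the signalling chain shared by activating Fc receptors, had 237, 338 and 358 CPM in STAT3-CKO SCI and 7.36, 13.9, 13.3 and 7.16 CPM in WT uninjured libraries, again with no overlap (log2 fold change 4.91 ± 0.39 SE, adjusted p = 4.26e-10). The member that did not pass was Cfb, complement factor B, named after its value was seen (log2 fold change -0.26 ± 0.86 SE).

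MHC class II genes, whose products present peptides to helper T cells, rose in the 7 of 9 members that passed the filter, with a median of 5.86. H2-Oa and Ciita did not pass the filter. The summed level was 328 to 903 CPM in STAT3-CKO SCI and 18.2 to 35.3 CPM in WT uninjured libraries, with animal 186 the lowest of the STAT3-CKO SCI libraries. Cd74, the invariant chain that guides class II molecules, had 79.5, 318 and 246 CPM in STAT3-CKO SCI libraries, against 1.27, 1.91, 2.60 and 1.44 CPM in WT uninjured libraries (log2 fold change 6.92 ± 0.49 SE, adjusted p = 3.97e-11). H2-Aa, a class II alpha chain, had 23.4, 71.6 and 51.2 CPM in STAT3-CKO SCI and 0.604, 1.29, 0.693 and 0.241 CPM in WT uninjured libraries (log2 fold change 6.21 ± 0.53 SE, adjusted p = 1.36e-09). H2-Ab1, the matching beta chain, had 17.2, 63 and 39.5 CPM in STAT3-CKO SCI and 0.0318, 0.168, 0.260 and 0.401 CPM in WT uninjured libraries (log2 fold change 7.53 ± 0.58 SE, adjusted p = 1.87e-10). In all 3 genes animal 186 was lowest and animal 270 highest among the STAT3-CKO SCI libraries, and no WT uninjured library came near them. The classical class II promoter holds a Y box, CTGATTGG, read on either strand. H2-Aa is shown because it is a called member that holds that box, and RefSeq gives the 250 bases before its start (GRCm38.p6, minus strand, chr17:34287824-34288073) as follows, with the box in capitals, its first base 51 bases before the start:
H2-Aa: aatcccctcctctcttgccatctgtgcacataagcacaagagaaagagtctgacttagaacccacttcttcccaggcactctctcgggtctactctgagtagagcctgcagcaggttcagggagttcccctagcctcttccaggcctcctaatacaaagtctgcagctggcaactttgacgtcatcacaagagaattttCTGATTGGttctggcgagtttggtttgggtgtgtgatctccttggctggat
The letters occurred in 4.43% of the 27025 genes with a promoter window of this length and in 3 of the 6 list members that have one. A match describes the letters only.

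MHC class I genes, which present peptides of the cell's own proteins, rose in 10 of 11 members, all tested, with a median of 4.88. The sum of the members was 532 to 1233 CPM in STAT3-CKO SCI and 42.7 to 66.7 CPM in WT uninjured libraries. H2-D1, a classical class I heavy chain, had 135, 253 and 174 CPM in STAT3-CKO SCI and 9.38, 11.5, 11.5 and 8.06 CPM in WT uninjured libraries (log2 fold change 4.22 ± 0.31 SE, adjusted p = 1.03e-10). H2-K1, another classical heavy chain, had 138, 253 and 169.5 CPM in STAT3-CKO SCI and 0.763, 3.31, 4.12 and 3.23 CPM in WT uninjured libraries (log2 fold change 6.06 ± 0.44 SE, adjusted p = 7.59e-11). The groups did not overlap for either, but reads of these near-identical paralogs may have been shared between them in counting, so their split is uncertain.

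Interferon-inducible genes rose in 12 of the 15 members tested, out of 20 listed, with a median of 4.15, also with Zbp1 set at its lower bound. The summed level was 140.3 to 256 CPM in STAT3-CKO SCI and 11.9 to 16.6 CPM in WT uninjured libraries. Isg15, Mx1, Oas1a, Iigp1 and Gbp3 did not pass the filter, and all 5 were called higher in the fit with no filter. Bst2, the membrane protein tetherin that holds back enveloped viruses, had 58.2, 29.7 and 40.9 CPM in STAT3-CKO SCI and 0.0795, 0.0561, 0.303 and 0.201 CPM in WT uninjured libraries (log2 fold change 8.03 ± 0.48 SE, adjusted p = 2.53e-12). Gbp2, a guanylate-binding protein, had 5.02, 15.4 and 4.09 CPM in STAT3-CKO SCI and 0, 0.168, 0 and 0.0200 CPM in WT uninjured libraries (log2 fold change 7.84 ± 0.91 SE, adjusted p = 2.79e-07). Zbp1, a sensor of Z-form nucleic acid, had 175 counts in the STAT3-CKO SCI and 0 in the WT uninjured libraries and was at least 318-fold higher by the floor given above. Both groups stood apart for all 3 genes, and animal 270 was the highest STAT3-CKO SCI library for Gbp2 but the lowest for Bst2. Gbp2 and Zbp1 passed the filter on low counts through injured libraries alone, so their rise was fixed in advance. The core of the interferon-stimulated response element was searched on both strands as GAAA, any 2 letters and GAAA again. Bst2 is shown because it is the interferon member with the smallest p and holds 2 overlapping copies of that core. RefSeq gives the 250 bases before its start (GRCm38.p6, minus strand, chr8:71537473-71537722) as follows, with both copies in capitals, their first bases 130 and 124 bases before the start:
Bst2: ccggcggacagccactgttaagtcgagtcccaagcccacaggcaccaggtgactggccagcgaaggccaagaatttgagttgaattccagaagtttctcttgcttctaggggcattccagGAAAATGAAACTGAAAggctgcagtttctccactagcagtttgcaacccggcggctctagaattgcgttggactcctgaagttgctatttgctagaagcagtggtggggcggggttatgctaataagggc
The core occurred in 3.46% of the 27025 genes with a window and in 11 of the 14 list members that have one, tested or not.

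Signals that call in leukocytes rose as well. Of 18 chemokines and cytokines, 13 were tested and 11 rose, with a median of 5.43. Summed over the 13 tested, the level was 153 to 192 CPM in STAT3-CKO SCI and 11.8 to 17.3 CPM in WT uninjured libraries. Cxcl16, a membrane-bound chemokine and scavenger receptor of phagocytes, had 54.8, 39.9 and 50.3 CPM in STAT3-CKO SCI and 0.175, 0.953, 0.130 and 0.221 CPM in WT uninjured libraries (log2 fold change 7.23 ± 0.50 SE, adjusted p = 3.02e-11). Cxcl10, a chemokine that draws T cells, had 9.63, 24.4 and 18.4 CPM in STAT3-CKO SCI and 0, 0, 0.173 and 0 CPM in WT uninjured libraries (log2 fold change 8.95 ± 0.82 SE, adjusted p = 5.47e-09). Il1rn, the antagonist of the interleukin-1 receptor, had 143 counts in the STAT3-CKO SCI and 0 in the WT uninjured libraries and was at least 259.5-fold higher by the same floor. Cxcl10 and Il1rn passed the filter on low counts through injured libraries alone, so their rise was fixed in advance. Ccl2, Il1b, Il6, Tnf and Il10, the classical early cytokines of the list, did not pass the filter. Ccl2 and Tnf each had 27 counts over the STAT3-CKO SCI and 1 over the WT uninjured libraries, a ratio of levels of 147 with a 95% counting interval of 24.2 to 6018. Il1b had 19 counts over the STAT3-CKO SCI and 0 over the WT uninjured libraries and was at least 34.5-fold higher by the same floor. These 3 were called higher in the fit with no filter. Il6 had 0 counts over the STAT3-CKO SCI and 1 over the WT uninjured libraries, and Il10 had 0 in all 7.

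Lymphocyte markers were scarce even in the lesion. Of 16 members, 2 passed the filter and both rose, Cd3e and Nkg7. WT uninjured libraries held only 0, 5, 0 and 2 counts of Cd3e and 3, 0, 0 and 1 of Nkg7. Both genes thus passed the filter through injured libraries alone, so their rise was fixed in advance. The 13 others in the count table summed to 3.35 to 8.57 CPM in STAT3-CKO SCI and 0.112 to 1.56 CPM in WT uninjured libraries, and the B cell marker Ms4a1 had 0 counts in all 7. Nkg7, a granule protein of cytotoxic lymphocytes, had 4.19, 4.15 and 3.51 CPM in STAT3-CKO SCI and 0.0477, 0, 0 and 0.0200 CPM in WT uninjured libraries (log2 fold change 7.0 ± 1.06 SE, adjusted p = 1.84e-05). Cd3e, a chain of the T cell receptor complex, had 0.837, 8.70 and 5.55 CPM in STAT3-CKO SCI and 0, 0.280, 0 and 0.0401 CPM in WT uninjured libraries (log2 fold change 6.38 ± 1.10 SE, adjusted p = 0.000106). Neither gene overlapped between the groups, and animal 186 was low for Cd3e. With no filter, 6 of the 16 passed the test. Of 12 neutrophil and mast cell markers, 1 passed the filter and rose: Csf3r, the receptor of granulocyte colony-stimulating factor, which microglia also express, had 11.3, 27.97 and 19 CPM in STAT3-CKO SCI and 2.39, 2.13, 2.56 and 1.90 CPM in WT uninjured libraries, without overlap (log2 fold change 3.14 ± 0.41 SE, adjusted p = 2.02e-06). The 10 untested members in the count table summed to 0.292 to 2.09 CPM in STAT3-CKO SCI and 0 to 0.642 CPM in WT uninjured libraries, which overlapped. With no filter 1 of them was called, the mast cell marker Cpa3, which was higher. It had 8 counts over the STAT3-CKO SCI and 0 over the WT uninjured libraries, at least 14.5-fold higher by the same floor. Elane, Camp, Mcpt4 and Cma1 had 0 counts in all 7 libraries. None of 9 red blood cell markers passed the filter. The 6 globin rows, near-identical copies whose reads a counter can discard, held exactly 0 in all 7 libraries. Alas2 and Slc4a1 together had 3 counts over the STAT3-CKO SCI and 27 over the WT uninjured libraries. Whether globin reads were lost in counting was not tested.

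Matrix genes of fibroblasts and pericytes rose in 7 of 11 members tested, out of 17 listed, with a median of 2.61, or 3.51 over the 7 tested with ribosomal rows removed. Together the 11 reached 69.1 to 142 CPM in STAT3-CKO SCI and 10.2 to 11.8 CPM in WT uninjured libraries. Fn1, the matrix protein fibronectin, had 18.8, 39.1 and 22.5 CPM in STAT3-CKO SCI and 0.461, 0.392, 0.650 and 0.241 CPM in WT uninjured libraries (log2 fold change 5.98 ± 0.44 SE, adjusted p = 8.69e-11). Col1a1 and Col1a2 encode the chains of type I collagen. Col1a1 had 7.95, 26.6 and 14.9 CPM in STAT3-CKO SCI and 0.986, 0.729, 0.867 and 0.521 CPM in WT uninjured libraries (log2 fold change 4.44 ± 0.49 SE, adjusted p = 1.2e-07). Col1a2 had 14.6, 25.5 and 21.9 CPM in STAT3-CKO SCI and 1.99, 1.29, 1.91 and 1.58 CPM in WT uninjured libraries (log2 fold change 3.61 ± 0.40 SE, adjusted p = 1.14e-07). All 3 genes were higher in every STAT3-CKO SCI library, and animal 270 was the highest in each. Col3a1, the chain of type III collagen, had 1.67, 12.9 and 4.97 CPM in STAT3-CKO SCI and 0.0318, 0, 0.823 and 0.221 CPM in WT uninjured libraries, in proportion the widest spread among the STAT3-CKO SCI animals of these 4 genes (log2 fold change 4.76 ± 0.82 SE, adjusted p = 9.53e-05). Of 16 collagens, 10 were tested and 5 rose, with a median of 2.79, or 3.66 over the 9 tested with ribosomal rows removed. The count was 8 when animal 186 was left out and 11 with no filter.

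**Figure D2:**
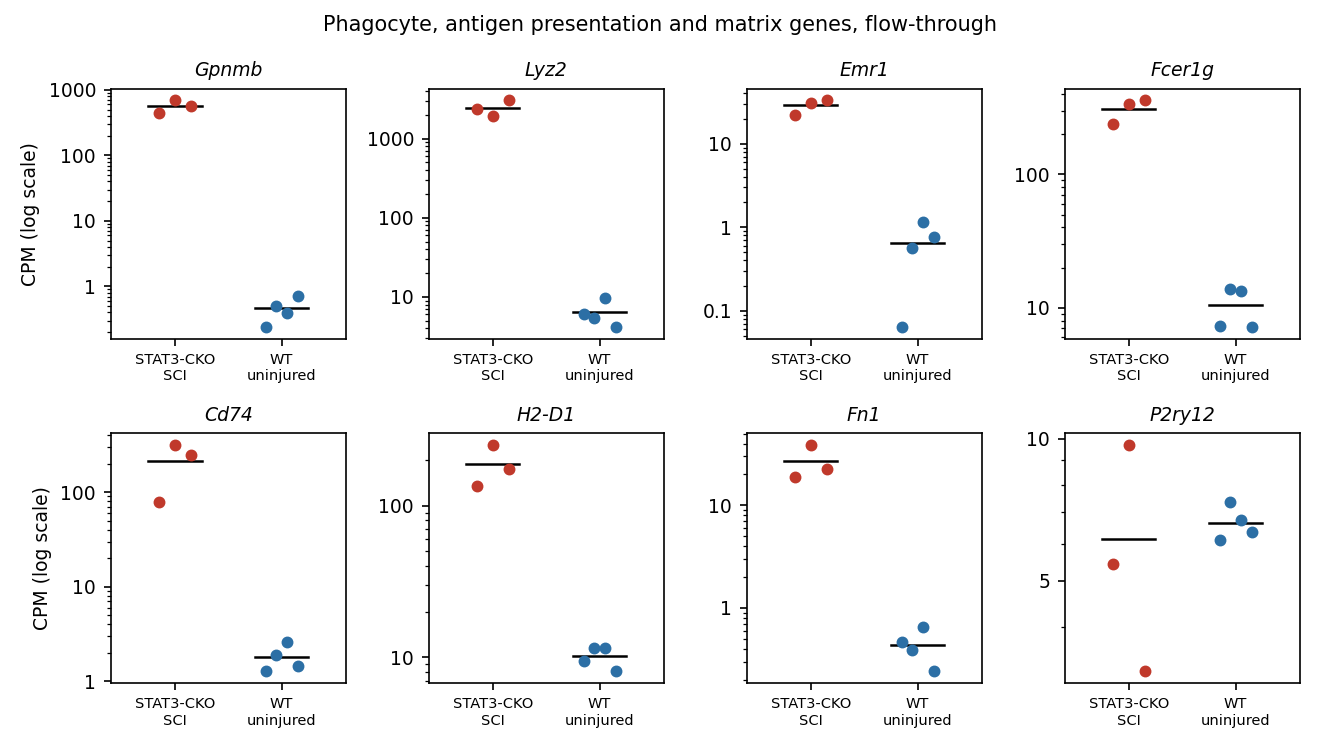
CPM on a log scale for 8 genes in STAT3-CKO SCI (red, n = 3) and WT uninjured (blue, n = 4) flow-through; points are libraries and the bar is the group mean. In 7 of the panels every STAT3-CKO SCI library lies above every WT uninjured one, while for P2ry12 the WT uninjured libraries lie inside the range of the STAT3-CKO SCI libraries.

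Neuronal RNA fell in part, and unevenly between genes. Of 17 general neuronal genes, all tested, 5 fell and 0 rose, with a median of -0.66, and in 9 of them all 3 STAT3-CKO SCI libraries lay below all 4 WT uninjured ones. Their summed level was 1592 to 2143 CPM in STAT3-CKO SCI and 3553 to 4355 CPM in WT uninjured libraries. The 5 became 8 with only the 7 compared libraries in the fit and 8 with DESeq2, and 2 without animal 531. Snap25 (chr2:136713453-136782428), a protein of the machinery that fuses synaptic vesicles, had 351, 523 and 387 CPM in STAT3-CKO SCI libraries, against 1888, 1594, 1749 and 2160.2 CPM in WT uninjured libraries (log2 fold change -2.13 ± 0.31 SE, adjusted p = 9.29e-06). Eno2, the neuronal enolase of glycolysis, had 67.8, 81.96 and 66.9 CPM in STAT3-CKO SCI and 125, 174, 178 and 175 CPM in WT uninjured libraries (log2 fold change -1.17 ± 0.29 SE, adjusted p = 0.00479). Vsnl1, a neuronal calcium sensor outside the list, had 77.8, 136 and 154 CPM in STAT3-CKO SCI and 458, 612, 588 and 615 CPM in WT uninjured libraries (log2 fold change -2.21 ± 0.34 SE, adjusted p = 2.61e-05). Snap25 and Eno2 did not overlap between the groups, and neither did Vsnl1, which was taken by a rule that required no overlap. For Eno2 the WT uninjured library of animal 42 stood below the other 3 of its group. Gabbr2, a subunit of the metabotropic GABA receptor and likewise outside the list, had 1.67, 8.66 and 1.75 CPM in STAT3-CKO SCI and 25.5, 19.9, 15.5 and 20.95 CPM in WT uninjured libraries, where animal 270 was the highest STAT3-CKO SCI library (log2 fold change -2.14 ± 0.51 SE, adjusted p = 0.00399). Among the general neuronal genes that did not pass were the neurofilament genes Nefl, Nefm and Nefh, which encode the cytoskeleton of large axons and were named after their values were seen. Their log2 fold changes were -0.91 ± 0.34, 0.14 ± 0.32 and 0.36 ± 0.30 (SE).

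Peptides of dorsal horn neurons fell in some members and rose in others. Of 14, all tested, 4 fell and 2 rose, with a median of -1.11. Tac2, the neurokinin B precursor of dorsal horn interneurons, had 1.67, 1.52 and 4.09 CPM in STAT3-CKO SCI and 22.4, 16.98, 26.8 and 18.2 CPM in WT uninjured libraries (log2 fold change -3.20 ± 0.50 SE, adjusted p = 2.39e-05). Sst, somatostatin, had 25.9, 20.9 and 41.8 CPM in STAT3-CKO SCI and 81.3, 108, 99.9 and 71.2 CPM in WT uninjured libraries (log2 fold change -1.62 ± 0.33 SE, adjusted p = 0.000727). Cck, cholecystokinin, had 9.21, 5.31 and 19.3 CPM in STAT3-CKO SCI and 34.6, 43.6, 51.1 and 34.8 CPM in WT uninjured libraries (log2 fold change -1.91 ± 0.44 SE, adjusted p = 0.00305). In all 3 animal 531 was the highest STAT3-CKO SCI library and still below the WT uninjured ones. Adcyap1, the peptide PACAP, which injured neurons are known to induce, went the other way, with 16.7, 20.3 and 16.95 CPM in STAT3-CKO SCI and 4.58, 3.48, 6.76 and 5.47 CPM in WT uninjured libraries (log2 fold change 1.83 ± 0.41 SE, adjusted p = 0.00222). Npy, a peptide of inhibitory interneurons, was the other peptide that rose, with 5.86, 14.2 and 9.94 CPM in STAT3-CKO SCI and 2.75, 4.43, 4.77 and 3.97 CPM in WT uninjured libraries (log2 fold change 1.37 ± 0.45 SE, adjusted p = 0.0401). Neither gene overlapped between the groups, but the Npy call was lost with RLE size factors, with no filter and without any 1 library other than that of animal 186. The Adcyap1 call was lost when counts were thinned to equal depth (adjusted p = 0.0966).

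Genes of transmitter synthesis and transport fell in 7 of the 15 members tested, out of 16 listed, with a median of -1.13, and in 13 of them all STAT3-CKO SCI libraries lay below all WT uninjured ones. This count rested on single libraries, since 1, 2 and 3 members passed without animal 186, 270 or 531 and 3 without animal 154, and on the libraries in the fit, since 12 passed with the 7 compared libraries alone and 11 with DESeq2. Slc6a5, the glycine transporter of inhibitory neurons, had 4.60, 17.7 and 9.06 CPM in STAT3-CKO SCI and 35.3, 30.6, 31.1 and 31.3 CPM in WT uninjured libraries (log2 fold change -1.53 ± 0.44 SE, adjusted p = 0.0164), a call lost without animal 186 or 531. Of 11 genes of cholinergic motor neurons, 9 were tested and 0 passed, with a median of -0.93. Their level added up to 48.8 to 129.7 CPM in STAT3-CKO SCI and 114 to 136 CPM in WT uninjured libraries. Chat, which makes acetylcholine, had 1.26, 2.41 and 0.292 CPM in STAT3-CKO SCI and 8.37, 4.15, 4.55 and 4.39 CPM in WT uninjured libraries, with no overlap (log2 fold change -1.81 ± 0.68 SE, adjusted p = 0.0764). It passed with the 7 compared libraries alone (adjusted p = 0.0238), with DESeq2 (adjusted p = 0.0193) and with no filter (adjusted p = 0.0347), as well as without animal 270. At the settings tried 0 to 5 members of the list passed.

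Genes that injured neurons switch on when axons are cut rose in part. Of 15, Npy among them, all tested, 7 rose and 0 fell, with a median of 1.14, and 4 rose with RLE size factors or without animal 531, 154 or 42. Atf3, a transcription factor of the axotomy response, had 11.7, 19.1 and 15.5 CPM in STAT3-CKO SCI and 0.0159, 0.112, 0.260 and 0.0802 CPM in WT uninjured libraries (log2 fold change 7.23 ± 0.67 SE, adjusted p = 6.21e-09). Sprr1a, a cornified envelope protein induced in axotomised neurons, had 46.04, 124 and 64.6 CPM in STAT3-CKO SCI and 0.748, 0.561, 0.173 and 0.160 CPM in WT uninjured libraries (log2 fold change 7.53 ± 0.52 SE, adjusted p = 3.02e-11). Ecel1, an endopeptidase induced by nerve injury, had 20.5, 33.5 and 18.7 CPM in STAT3-CKO SCI and 5.23, 6.50, 5.81 and 4.85 CPM in WT uninjured libraries (log2 fold change 2.13 ± 0.36 SE, adjusted p = 6.71e-05). For all 3 the groups did not overlap, and animal 270 was the highest. Atf3 is also known from macrophages, whose markers rose in the same libraries, and their part in its difference was not tested.

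Genes of cholesterol synthesis fell in about as many members as did not pass. Of 22, all tested, 11 fell and 0 rose, with a median of -1.06, and in 14 of them all STAT3-CKO SCI libraries lay below all WT uninjured ones. Their summed level was 114 to 171 CPM in STAT3-CKO SCI and 322 to 358 CPM in WT uninjured libraries, with no overlap. Without animal 270, 531 or 154 the number that fell was 6, 5 and 7. Fdft1 (chr14:63145150-63179578), squalene synthase, had 12.1, 6.69 and 7.89 CPM in STAT3-CKO SCI libraries, against 29.6, 39.3, 40.95 and 37.6 CPM in WT uninjured libraries (log2 fold change -2.09 ± 0.37 SE, adjusted p = 0.000131). Sqle, squalene epoxidase, had 3.35, 8.52 and 4.68 CPM in STAT3-CKO SCI and 29.1, 30.04, 31.5 and 26.5 CPM in WT uninjured libraries (log2 fold change -2.30 ± 0.58 SE, adjusted p = 0.00602). Fdps, farnesyl diphosphate synthase, had 2.09, 1.61 and 2.05 CPM in STAT3-CKO SCI and 4.45, 9.47, 11.5 and 8.56 CPM in WT uninjured libraries (log2 fold change -2.19 ± 0.59 SE, adjusted p = 0.0106), a call lost without animal 270 or 79. These 3 enzymes act one after another before the sterol ring is formed, and each separated the groups.

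Respiratory chain genes fell in 4 of 20 members, all tested, with a median of -0.36 and 0 higher, and 7 fell with only the 7 compared libraries in the fit. Atp5b, the catalytic beta subunit of ATP synthase, had 68.2, 194 and 112 CPM in STAT3-CKO SCI and 491, 686, 649.5 and 604 CPM in WT uninjured libraries (log2 fold change -2.27 ± 0.33 SE, adjusted p = 9.63e-06). Atp5g1, a subunit of its membrane ring, had 11.7, 25.03 and 21.3 CPM in STAT3-CKO SCI and 72.1, 88.3, 89.4 and 78.1 CPM in WT uninjured libraries (log2 fold change -2.05 ± 0.44 SE, adjusted p = 0.00133). Cyc1, cytochrome c1 of complex III, had 19.3, 21.1 and 10.8 CPM in STAT3-CKO SCI and 44.9, 56.4, 65.1 and 48.5 CPM in WT uninjured libraries (log2 fold change -1.64 ± 0.36 SE, adjusted p = 0.00148). The groups did not overlap for these 3, while the alpha subunit gene Atp5a1, named after its value was seen, had a log2 fold change of -0.03 ± 0.28 (SE).

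Most myelin genes did not pass the test. Of 15, all tested, 3 fell and 0 rose, with a median of -0.33. Added together, the members had 2824 to 3749 CPM in STAT3-CKO SCI and 3482 to 4071 CPM in WT uninjured libraries, ranges that overlapped. The 3 became 1 without animal 186, 531 or 154, and 5 with RLE size factors, DESeq2, ribosomal rows removed or the 7 compared libraries alone. Mbp, myelin basic protein, had 2377, 1688 and 2379.7 CPM in STAT3-CKO SCI and 1767, 2164, 2317 and 1822 CPM in WT uninjured libraries, and the groups overlapped (log2 fold change 0.09 ± 0.28 SE, adjusted p = 0.879). Mal, a lipid raft protein of myelin, had 59.01, 86.5 and 80.1 CPM in STAT3-CKO SCI and 144, 154, 163 and 181 CPM in WT uninjured libraries (log2 fold change -1.09 ± 0.27 SE, adjusted p = 0.0057). The other 2 that fell were Ugt8a (log2 fold change -1.25 ± 0.37 SE) and Ermn (log2 fold change -0.96 ± 0.29 SE), and the Mal call held without any 1 of the 7 libraries while the calls of both others did not. Tubb4a, a beta-tubulin of neurons and oligodendrocytes that is not on the list, had 104, 175 and 111 CPM in STAT3-CKO SCI and 439, 632, 624 and 543 CPM in WT uninjured libraries (log2 fold change -2.10 ± 0.29 SE, adjusted p = 4.17e-06). Tubb4a was taken by the size of its difference, under a rule that required no overlap. Of 11 genes of oligodendrocyte precursors, all tested, 3 rose, with a median of 0.68: Cspg4, Bmp4 and Gpr17, the call of Gpr17 being lost without animal 531, 154 or 79. The call of Cspg4 was lost when counts were thinned to equal depth (adjusted p = 0.385). Bmp4, a bone morphogenetic protein of cells committing to the oligodendrocyte line, had 4.19, 2.77 and 5.26 CPM in STAT3-CKO SCI and 0.811, 0.673, 0.477 and 0.642 CPM in WT uninjured libraries (log2 fold change 2.59 ± 0.65 SE, adjusted p = 0.00587). Cspg4, the proteoglycan NG2 of precursors and pericytes, had 4.19, 12.1 and 10.2 CPM in STAT3-CKO SCI and 1.62, 1.79, 1.39 and 1.14 CPM in WT uninjured libraries (log2 fold change 2.61 ± 0.56 SE, adjusted p = 0.00125). Pdgfra, the growth factor receptor that defines precursors, had 7.53, 5.62 and 11.1 CPM in STAT3-CKO SCI and 6.46, 4.26, 3.73 and 5.39 CPM in WT uninjured libraries, which overlapped (log2 fold change 0.68 ± 0.49 SE, adjusted p = 0.416).

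**Figure D3:**
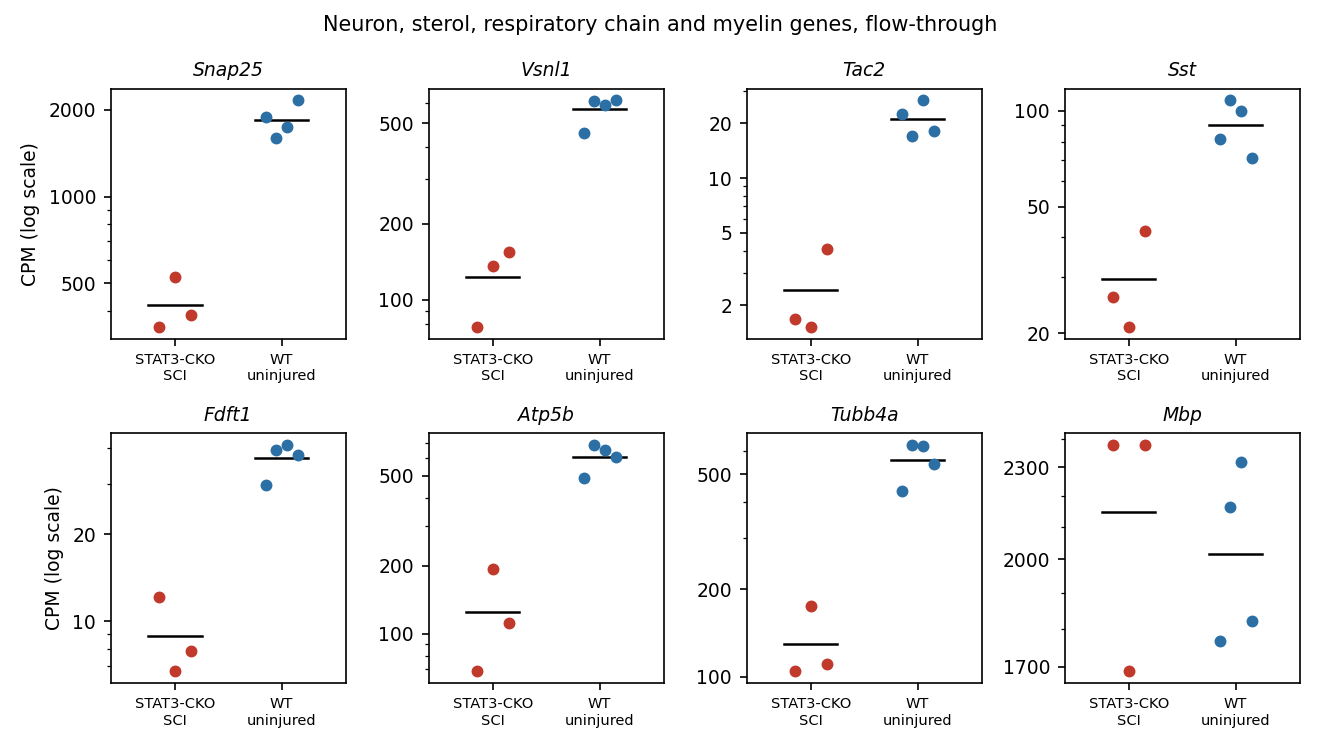
CPM on a log scale for 8 genes of neurons, sterol synthesis, the respiratory chain and myelin in STAT3-CKO SCI (red, n = 3) and WT uninjured (blue, n = 4) flow-through; points are libraries and the bar is the group mean. In 7 of the panels every STAT3-CKO SCI library lies below every WT uninjured one, while for Mbp, whose axis spans a narrow range, the groups overlap. Vsnl1 and Tubb4a were taken by a rule that required no overlap.

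Few markers of other resident cell types passed the filter. Of 16 endothelial genes, 3 passed the filter and 0 passed the test. The other 13, Pecam1 among them, summed to 7.31 to 14.1 CPM in STAT3-CKO SCI and 0.607 to 3.67 CPM in WT uninjured libraries, without overlap. With no filter 3 of these were called, all higher: Flt1, a receptor of vascular endothelial growth factors, Cdh5, the cadherin of endothelial junctions, and Cldn5, a tight junction claudin. Mfsd2a, a lipid transporter of the blood-brain barrier, had 1.67, 2.01 and 5.85 CPM in STAT3-CKO SCI and 3.02, 4.82, 5.76 and 4.57 CPM in WT uninjured libraries, which overlapped (log2 fold change -0.55 ± 0.60 SE, adjusted p = 0.615). Of 12 ependymal genes 3 passed the filter and 0 the test, with a median of 0.08 that moved with the scaling, to -0.07 with RLE size factors, -0.15 with DESeq2 and 0.89 for the 1 member tested with ribosomal rows removed. Foxj1, the master regulator of motile cilia, had 6.70, 4.37 and 4.97 CPM in STAT3-CKO SCI and 3.66, 2.80, 1.26 and 2.79 CPM in WT uninjured libraries (log2 fold change 0.99 ± 0.56 SE, adjusted p = 0.274), and neither this nor the endothelial gene was called at any setting. Of 11 Schwann cell genes, 7 were tested, with a median of 0.27, or 1.03 over the 2 tested with ribosomal rows removed. Of 20 cell cycle genes, 5 were tested and 2 rose, 1 to 4 passed when single libraries were left out, and 9 with no filter. Top2a, the topoisomerase of dividing cells, had 1.26, 3.61 and 2.92 CPM in STAT3-CKO SCI and 0.620, 0.0561, 0.0867 and 0.221 CPM in WT uninjured libraries (log2 fold change 3.30 ± 0.79 SE, adjusted p = 0.00407), a call lost without animal 270.

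Some of the astrocyte genes that remained in the flow-through rose in the lesion. Of 18 homeostatic astrocyte genes, all tested, 8 rose and 0 fell, with a median of 0.99. The sum of the members was 922 to 2019 CPM in STAT3-CKO SCI and 808 to 915 CPM in WT uninjured libraries. The count was 3 with RLE size factors and between 1 and 3 without any 1 of animals 186, 531, 154, 42, 65 and 79. Aqp4, the water channel of astrocyte endfeet, had 129, 80.5 and 134 CPM in STAT3-CKO SCI and 32.9, 21.4, 25.5 and 21.2 CPM in WT uninjured libraries (log2 fold change 2.18 ± 0.29 SE, adjusted p = 2.21e-06), and its call held at each setting at which it was tested. Slc1a2, the glutamate transporter GLT-1, had 123, 82.05 and 119 CPM in STAT3-CKO SCI and 81.2, 27.4, 28.9 and 45.8 CPM in WT uninjured libraries (log2 fold change 1.23 ± 0.33 SE, adjusted p = 0.0107), a call lost without animal 186, 531 or 65, and the groups were separated by under 1 CPM. Of 15 genes of reactive astrocytes, 11 were tested and 7 rose, with a median of 1.84. Gfap (chr11:102887336-102900912), the intermediate filament whose promoter drives the Cre, had 82.03, 39.1 and 64.02 CPM in STAT3-CKO SCI libraries, against 22.05, 30.04, 29.9 and 20.8 CPM in WT uninjured libraries (log2 fold change 1.25 ± 0.28 SE, adjusted p = 0.00225). Vim, the filament vimentin, which macrophages and fibroblasts also express, had 118, 98.95 and 114 CPM in STAT3-CKO SCI and 0.541, 4.04, 2.77 and 2.19 CPM in WT uninjured libraries (log2 fold change 5.58 ± 0.46 SE, adjusted p = 7.46e-10). Cd44, the hyaluronan receptor, had 4.19, 12.2 and 7.31 CPM in STAT3-CKO SCI and 0.970, 1.01, 1.47 and 1.16 CPM in WT uninjured libraries (log2 fold change 2.82 ± 0.52 SE, adjusted p = 0.000234). Each of these 3 separated the groups. Timp1, an inhibitor of matrix proteases, had 2.09, 1.03 and 0.877 CPM in STAT3-CKO SCI and 1.11, 0, 0 and 0 CPM in WT uninjured libraries, and the WT uninjured library of animal 42 lay within the STAT3-CKO SCI range (log2 fold change 1.84 ± 1.03 SE, adjusted p = 0.269). Several genes of the reactive list are shared with macrophages and fibroblasts, whose markers rose in every STAT3-CKO SCI library, and the part of those cells was not tested.

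Components of STAT3 and gp130 signalling rose in 5 of 13 members tested, out of 17 listed, with a median of 1.23. The summed level was 160.5 to 192 CPM in STAT3-CKO SCI and 95.9 to 115 CPM in WT uninjured libraries. The 5 became 3 with the ribosomal rows removed and 3 without animal 270 or 79. Socs3, the feedback inhibitor, and the ligands Lif, Cntf and Clcf1 did not pass the filter. Il6ra, the interleukin-6 receptor, had 5.86, 12 and 7.89 CPM in STAT3-CKO SCI and 0.175, 0.617, 0.737 and 1.30 CPM in WT uninjured libraries (log2 fold change 3.63 ± 0.54 SE, adjusted p = 1.26e-05). Il11ra1, the interleukin-11 receptor, had 26.8, 8.70 and 10.8 CPM in STAT3-CKO SCI and 1.51, 2.35, 2.73 and 2.11 CPM in WT uninjured libraries (log2 fold change 2.79 ± 0.44 SE, adjusted p = 3.38e-05). Osmr, the oncostatin M receptor, had 4.19, 1.56 and 1.75 CPM in STAT3-CKO SCI and 0.0159, 0.280, 0.130 and 0.201 CPM in WT uninjured libraries (log2 fold change 3.97 ± 1.0 SE, adjusted p = 0.00623). All 3 receptors were higher in every STAT3-CKO SCI library, with animal 186 the highest for Il11ra1 and Osmr. Il6st, the shared receptor gp130, was named after its value was seen and did not pass (log2 fold change 0.51 ± 0.39 SE).

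Ribosomal protein genes rose in 15 of 20 members, all tested, with 0 lower and a median of 1.28, and in 16 of them all STAT3-CKO SCI libraries lay above all WT uninjured ones. The summed level was 2232 to 2771 CPM in STAT3-CKO SCI and 655 to 1305 CPM in WT uninjured libraries. Rps2, a protein of the small subunit, had 169, 111 and 186 CPM in STAT3-CKO SCI and 21, 43.3, 47.02 and 29.4 CPM in WT uninjured libraries (log2 fold change 2.14 ± 0.31 SE, adjusted p = 1.09e-05). Rps4x, another small subunit protein, had 163, 178 and 210.2 CPM in STAT3-CKO SCI and 30.1, 65.9, 70.1 and 50.5 CPM in WT uninjured libraries (log2 fold change 1.77 ± 0.29 SE, adjusted p = 5.88e-05). The uninjured library of animal 42 was the lowest of all 7 for both, and it also had the lowest Rn45s share. Rn45s itself had a log2 fold change of 4.08 ± 0.79 (SE, adjusted p = 0.00044). Pseudogene copies of ribosomal protein genes could take part of these reads, and what the ribosomal RNA share contributed was not tested.

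The same injured STAT3-CKO libraries were set against injured WT flow-through to see which of these levels differ by genotype after injury. Of 12685 genes, 15 differed at an adjusted p under 0.05, which is 0.118%, 11 of them higher (0.0867%) and 4 lower (0.0315%) in STAT3-CKO SCI, and 1665 stood at an unadjusted p under 0.05. DESeq2 called 205, and the fit with no filter 131. The count was 3, 2 and 3 without STAT3-CKO SCI animal 186, 270 or 531, and 29, 5, 20 and 21 without WT SCI animal 9596, 9843, 9874 or 9935. WT SCI libraries held only 91626 to 615302 counts outside the ribosomal rows. Both comparisons use the same 3 STAT3-CKO SCI libraries, so their values are given side by side.

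The 4 lower genes were Gfap, Serpina3n, A2m and Nudt6, of which only Gfap was taken by the naming rule and the others were named after their values were seen. Gfap had 82.03, 39.1 and 64.02 CPM in STAT3-CKO SCI and 357, 316, 297 and 390.3 CPM in WT SCI libraries (log2 fold change -2.47 ± 0.31 SE, adjusted p = 0.000105). Serpina3n, a serine protease inhibitor of reactive astrocytes, had 63.2, 49.3 and 56.7 CPM in STAT3-CKO SCI libraries, 389, 274, 291 and 270.1 CPM in WT SCI libraries and 38.9, 69.2, 59.6 and 45.2 CPM in WT uninjured libraries (STAT3-CKO SCI over WT SCI: log2 fold change -2.45 ± 0.30 SE, adjusted p = 0.000105). For both genes every STAT3-CKO SCI library was below every WT SCI library and the call held at each of 12 other settings, up to an adjusted p of 0.00752. Between STAT3-CKO SCI and WT uninjured, Gfap rose, whereas Serpina3n overlapped and did not pass (log2 fold change 0.08 ± 0.27 SE, adjusted p = 0.893). A2m, the protease inhibitor alpha-2-macroglobulin, had 3.35, 3.48 and 2.05 CPM in STAT3-CKO SCI and 46.7, 30.2, 27.1 and 21.7 CPM in WT SCI libraries (log2 fold change -3.41 ± 0.58 SE, adjusted p = 0.0156), a call lost without any 1 STAT3-CKO SCI library. The call of Nudt6, a nudix hydrolase, was lost at 7 of 11 other settings.

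Among the 11 higher genes, Cd74 had 79.5, 318 and 246 CPM in STAT3-CKO SCI and 32.4, 54.6, 78.2 and 15.8 CPM in WT SCI libraries (log2 fold change 2.21 ± 0.41 SE, adjusted p = 0.0245). Every STAT3-CKO SCI library lay above every WT SCI one, by little in animal 186, and the call was lost without animal 270, 531, 9843 or 9935. H2-Aa and H2-Ab1 did not pass here (adjusted p = 0.104 and 0.175) but did with no filter on low counts (adjusted p = 0.00184 and 0.0369). Snap25 had 351, 523 and 387 CPM in STAT3-CKO SCI and 205, 92.95, 139 and 122 CPM in WT SCI libraries (log2 fold change 1.58 ± 0.29 SE, adjusted p = 0.0238), a call lost without any 1 STAT3-CKO SCI library or without animal 9843. Penk, the enkephalin precursor, named after its value was seen, had 89.6, 68.4 and 113 CPM in STAT3-CKO SCI libraries, 37.8, 23.6, 28.6 and 11.8 CPM in WT SCI libraries and 45.8, 54.1, 53.2 and 55.7 CPM in WT uninjured libraries (STAT3-CKO SCI over WT SCI: log2 fold change 1.74 ± 0.32 SE, adjusted p = 0.0216), with its call lost without the same 4 libraries as that of Snap25. Phagocyte genes with the widest differences from WT uninjured did not pass between the injured groups: Gpnmb had a log2 fold change of -0.12 ± 0.40 (SE) and Lyz2 one of -0.46 ± 0.38 (SE) in STAT3-CKO SCI over WT SCI.

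**Figure D4:**
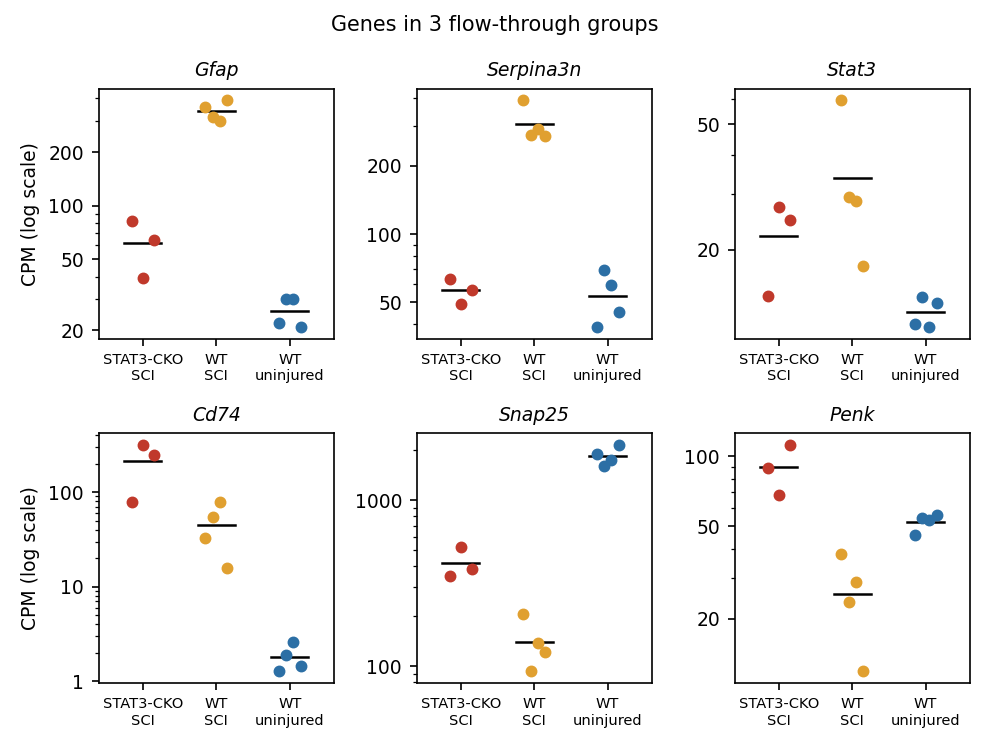
CPM on a log scale for 6 genes in STAT3-CKO SCI (red, n = 3), WT SCI (orange, n = 4) and WT uninjured (blue, n = 4) flow-through; points are libraries and the bar is the group mean. Gfap and Serpina3n are lower in every STAT3-CKO SCI than in every WT SCI library, Cd74, Snap25 and Penk are higher, and Stat3 overlaps between the injured groups.

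Whether these differences were alike in flow-through and HA IP was tested with the HA IP libraries of the same 7 animals, in 1 fit over the 14 libraries. HA IP also held RNA of genes known from other cells. In STAT3-CKO SCI animals, Lyz2 averaged 1349 CPM in HA IP and 5203 CPM in flow-through, and Mbp 6349.5 and 4605.5 CPM. A ratio in HA IP is therefore not by itself one of astrocyte ribosomes, and the source of this RNA was not tested. The difference between STAT3-CKO SCI and WT uninjured itself differed between the fractions in 562 of 15068 genes, 3.73%, being higher in flow-through in 417 (2.77%) and lower in 145 (0.962%). With the animal as a replicate block the count was 1759, or 11.7%, of which 1129 were higher and 630 lower, and it was 292, 234, 228 and 273 without animal 531, 154, 65 or 79. Values below are log2 ratios of group mean CPM in each fraction, and the difference is the fitted flow-through effect minus the HA IP effect.

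Many astrocyte genes had a higher ratio of STAT3-CKO SCI to WT uninjured in flow-through than in HA IP. Of 18 homeostatic astrocyte genes, 10 had the higher difference in flow-through and 0 the lower, and 16 and 0 with the replicate block. Aqp4 had log2 ratios of 2.13 in flow-through and 0.06 in HA IP (difference 2.06 ± 0.38 SE, adjusted p = 0.0033). Gfap had log2 ratios of 1.21 in flow-through and -0.59 in HA IP (difference 1.79 ± 0.39 SE, adjusted p = 0.0118). The ratio was above 0 in flow-through for both, and below 0 in HA IP for Gfap. Stat3 had log2 ratios of 0.75 in flow-through and -0.52 in HA IP (difference 1.29 ± 0.34 SE, adjusted p = 0.041), a call lost without any 1 of 6 of the 7 animals, animal 186 being the exception. Of the 15 reactive astrocyte genes, 5 had the higher difference in flow-through and 7 with the replicate block. Vim had log2 ratios of 5.48 in flow-through and 2.12 in HA IP (difference 3.42 ± 0.53 SE, adjusted p = 0.000962). Cd44 had log2 ratios of 2.73 in flow-through and -0.17 in HA IP (difference 2.98 ± 0.50 SE, adjusted p = 0.00186).

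Genes of phagocytes and antigen presentation had positive ratios in both fractions, and for some the ratio was higher in flow-through. Of 20 lipid-handling genes, 12 had the higher difference in flow-through and 0 the lower, and 12 and 2 with the replicate block. Lgals3 had log2 ratios of 10.49 in flow-through and 5.06 in HA IP (difference 5.28 ± 0.67 SE, adjusted p = 0.000139). Its WT uninjured flow-through level rests on 0, 0, 1 and 4 counts, so the size of the ratio and of the difference is uncertain. Gpnmb had log2 ratios of 10.21 in flow-through and 6.72 in HA IP (difference 3.49 ± 0.46 SE, adjusted p = 0.000192). H2-K1, of the MHC class I list, had log2 ratios of 5.98 in flow-through and 2.85 in HA IP (difference 3.17 ± 0.51 SE, adjusted p = 0.00116). In these 3 the HA IP ratio was itself well above 0. The 9 MHC class II genes went differently: 0 passed in either direction, and with the replicate block 2 were lower in flow-through. Cd74 had log2 ratios of 6.85 in flow-through and 8.96 in HA IP (difference -2.07 ± 0.59 SE, adjusted p = 0.0546, and 6.91e-05 with the replicate block). H2-Aa had log2 ratios of 6.06 in flow-through and 8.35 in HA IP (difference -2.16 ± 0.75 SE, adjusted p = 0.124, and 0.000814 with the replicate block).

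Myelin genes stood lower in flow-through relative to HA IP. Of 15, 0 had the higher and 8 the lower difference in flow-through, and 12 the lower with the replicate block. Ugt8a, which makes the myelin lipid galactosylceramide, had log2 ratios of -1.31 in flow-through and 0.54 in HA IP (difference -1.84 ± 0.33 SE, adjusted p = 0.00258). Mbp had log2 ratios of 0.04 in flow-through and 1.5 in HA IP (difference -1.46 ± 0.32 SE, adjusted p = 0.0122), a call lost without animal 154 or 65. Both had the higher ratio in HA IP. Among matrix and ribosomal protein genes, Col1a2 had log2 ratios of 3.56 in flow-through and 0.63 in HA IP (difference 2.94 ± 0.39 SE, adjusted p = 0.000192). Rps4x had log2 ratios of 1.71 in flow-through and -0.12 in HA IP (difference 1.83 ± 0.35 SE, adjusted p = 0.00481), and of the 20 ribosomal protein genes 4 were higher in flow-through, or 20 with the replicate block.

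**Figure D5:**
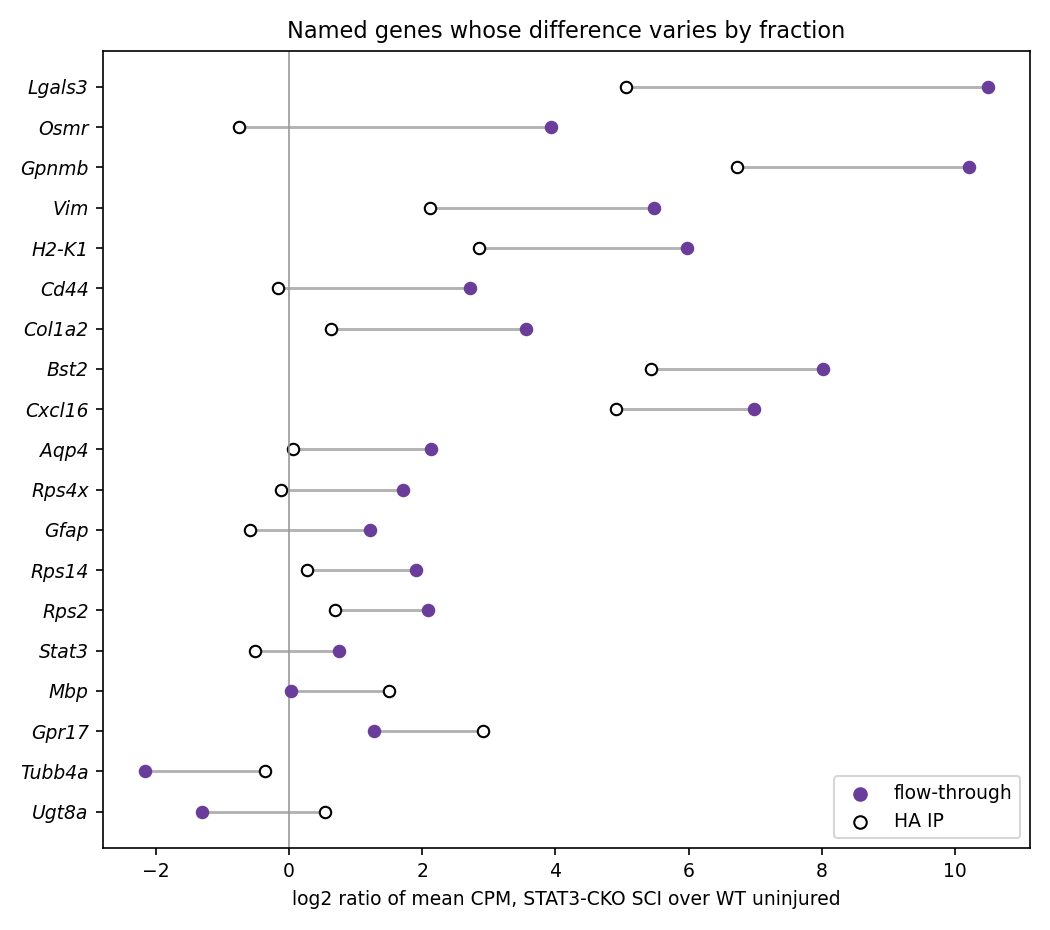
Log2 ratio of mean CPM, STAT3-CKO SCI over WT uninjured, in flow-through (filled) and HA IP (open) of the same 7 animals for 19 genes of the naming rule whose difference varied between the fractions at an adjusted p under 0.05, ordered by that difference. Lgals3, at the top, has 10.49 in flow-through and 5.06 in HA IP, while Ugt8a, at the bottom, has -1.31 and 0.54. The flow-through ratio of Lgals3 rests on 0 to 4 counts per WT uninjured library.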

How the data were processed

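RNA of spinal cord was read as 2 fractions per animal, HA IP and flow-through, and cDNA was made from 5 ng of RNA with a Nugen Ovation kit, per the labels' protocols. The authors deposited raw counts per gene with 1 column per library, and tables of their own comparisons with log2 fold changes, p-values and false discovery rates, per the file headers. Per the submitters' processing notes, CASAVA 1.8.2, edgeR and the mm10 build were used, in no stated role. The aligner, counter, annotation and strand setting are not stated. Without strand, antisense and overlapping genes, and paralogs such as the H2 and Ly6 families, stay uncertain. The 146 per-sample columns that matched no sample analysed here were not used. Of 24060 gene rows, 27 held a date in place of a symbol, of which 25 could be turned back into symbols.

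Counts were filtered with filterByExpr (minimum count 10) and scaled by TMM, and edgeR 4.0.16 in R 4.3.3 fitted its quasi-likelihood model to the 11 flow-through libraries (STAT3-CKO SCI, WT SCI and WT uninjured), which share 1 estimate of the spread. Genes with an adjusted p (Benjamini-Hochberg) under 0.05 were called. A second fit over the 14 flow-through and HA IP libraries of the 7 compared animals tested whether the difference varied between fractions. Both fractions of an animal come from the same mouse, and their deviations from the group means correlated at 0.330 to 0.671 in all 7 animals, so the fit with the animal as a replicate block is given beside the main values. The main fit of the 11 flow-through libraries was tried on simulated data, for STAT3-CKO SCI over WT uninjured only. The fit over both fractions, the replicate block, the contrast with WT SCI and the alternatives were not tried in that way. Replicates are separate animals, and no pair of replicates agreed within counting noise (lowest chi-square per degree of freedom 6.29 among the compared groups). That chi-square used raw counts scaled by their totals, with Rn45s kept in, so differences in the Rn45s share add to it. It does not measure agreement on the TMM scale. Counting intervals (95%) and the floor of 3 counts cover counting error only. Sequences came from RefSeq (GRCm38.p6) and gene positions from GENCODE M21 (GRCm38).

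Named were, per direction, the 12 largest called differences whose mean log2 CPM was 3 or more and that showed no overlap between groups, up to 3 called members of each of 30 lists by smallest p, and a fixed set of markers. The members, lists and tests were chosen with earlier results of these data known. Alternatives were RLE size factors, DESeq2 1.42.0, no filter, ribosomal rows removed, counts thinned to equal depth, only the compared groups in the fit, and each library left out. A few genes are not reported here. Thinning the compared groups alone was added after seeing the data.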

Additional observations from a re-analysis of the deposited data

Results flagged for a closer look

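Among the 95 genes named by rule, 12 had 1 WT uninjured library standing far from the other 3 of its group, by its gap to the nearest of them relative to the group's range, and chance gives about 1 such flag in 20 groups of 4. Animal 42 had the highest Chat (8.37 CPM, others 4.15 to 4.55), Slc6a5 (35.3 CPM, others 30.6 to 31.3), Timp1 (1.11 CPM, others 0) and Trp53i11 (33.2 CPM, others 18.0 to 19.5), and the lowest Eno2 (125 CPM, others 174 to 178). Animal 65 had the highest Cd3e (0.28 CPM, others 0 to 0.0401), Cxcl16 (0.953 CPM, others 0.130 to 0.221) and Gbp2 (0.168 CPM, others 0 to 0.0200). Animal 79 had the highest Cxcl10 (0.173 CPM, others 0) and Ms4a7 (0.0433 CPM, others 0), and animal 154 the highest Cst7 (0.0200 CPM, others 0) and Wfdc17 (0.0401 CPM, others 0). Most of the flags in immune genes are 1 to a few counts over a group otherwise at or near 0.

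For 19 of the named genes the difference between STAT3-CKO SCI and WT uninjured was itself different in flow-through and HA IP by the fitted interaction in edgeR. The flow-through difference was higher on the log2 scale by 5.28 for Lgals3, 4.71 for Osmr, 3.49 for Gpnmb, 3.42 for Vim, 3.17 for H2-K1, 2.98 for Cd44, 2.94 for Col1a2, 2.59 for Bst2 and 2.32 for Cxcl16. It was higher by 2.06 for Aqp4, 1.83 for Rps4x, 1.79 for Gfap, 1.64 for Rps14, 1.4 for Rps2 and 1.29 for Stat3. It was lower for Ugt8a (-1.84), Tubb4a (-1.79), Gpr17 (-1.65) and Mbp (-1.46). Calls lost without 1 animal were those of Osmr (animal 79), Bst2 (531, 42 or 65), Cxcl16 (any of 5), Rps14 (any of 6), Rps2 (any of 7), Stat3 (any of 6), Mbp (154 or 65), Gpr17 (186, 154 or 65) and Tubb4a (531, 154 or 65).

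Of the named genes, 3 differed between the injured groups, STAT3-CKO SCI over WT SCI in flow-through, by edgeR's test: Cd74 (log2 fold change 2.21), Snap25 (log2 fold change 1.58) and Gfap (log2 fold change -2.47).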

How the results depend on the processing

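The count of genes called between STAT3-CKO SCI and WT uninjured was 1769, and it was 2751 with only these groups in the fit and 557 after thinning to equal depth. Genes higher numbered 413 after thinning. Of the named genes still tested after thinning to equal depth, 12 lost their call and 49 did not change. Genes lower numbered 1159 with only these groups in the fit, 741 with these groups alone and thinned (added after seeing the data), 1122 with DESeq2, 677 with RLE size factors and 144 after thinning. The cause was not tested, apart from the fewer counts that thinning leaves. Without 1 library at a time the counts ran from 1244 to 1597 called, 1024 to 1177 higher and 181 to 442 lower. RLE size factors moved the median log2 fold change of all genes to -0.16 and DESeq2 to -0.16, from near 0, and 62.6% and 54.8% of calls were then higher, against 74.7%. Under these scalings and with ribosomal rows removed, the ependymal list was the only 1 of 29 whose median turned sign. Between the injured groups the 15 genes became 205 with DESeq2, 131 with no filter, 7 after thinning, and 2 to 29 without 1 library. The difference between fractions was called in 562 genes, in 1759 with the animal as a replicate block and in 228 to 645 without 1 animal. The block added 18 named genes to the calls and lost none, and no direction of a named gene's called value turned at any alternative. No replicate block applies between groups within flow-through, since each animal gives 1 such library. The STAT3-CKO SCI libraries of animals 186 and 531 and all WT SCI libraries were shallow outside ribosomal rows, which limits low genes, and STAT3-CKO SCI and WT uninjured differ in both injury and genotype.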
